A study of Homo sapiens with 4 samples.

Results

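The genes described here are the ligands and receptors of axon guidance, taken by symbol as the semaphorins, plexins, neuropilins, SLITs, ROBOs, netrins and UNC5 receptors together with DCC and NEO1. The rule named 48 protein-coding genes, and all 48 were found among the 60617 genes of the table. Semaphorins are secreted or membrane-bound cues that bind plexins, and the secreted class 3 semaphorins mostly do so through the co-receptors NRP1 and NRP2. SLITs are secreted and repel growing axons through ROBO receptors. Netrins attract axons through DCC and its relative neogenin, encoded by NEO1, and repel them through UNC5 receptors. Outside the nervous system the same molecules act in cell migration, adhesion, vessel growth and survival, and DCC and the UNC5 receptors are known as dependence receptors, which can promote cell death when their ligand is missing.

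They were measured by RNA-seq in A673, an established human Ewing sarcoma cell line driven by a fusion of EWSR1 to FLI1. Treated cells received CBL0137, a DNA-binding curaxin that traps the histone chaperone FACT on chromatin, at 1 µM for 24 h, and the control cells received DMSO for 24 h. Each condition had 2 libraries, with 20483714 and 22817617 reads assigned to genes in CBL0137 replicates 1 and 2, and 23373554 and 23031963 in DMSO replicates 1 and 2. No label states that the replicates are separate cultures, and the spread behind each p-value may therefore be technical alone. In a bulk sample, fewer cells with a transcript and less of it per cell cannot be told apart. The study is of 1 cell line that is neither neuronal nor endothelial by label, so the values say what this line transcribes and not how axons are guided.

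Ewing sarcoma markers fitted the label of the line. CD99 lay between 1562 and 1592 CPM (counts scaled to library size with TMM factors) in the 4 libraries, and NKX2-2 and NR0B1 were present at 47.4 to 237 CPM. Blood markers PTPRC, CD3E and HBB, endothelial markers VWF and TEK, and the neuronal markers DCX and ELAVL4 lay at 0 to 1 read in every library. Other neuronal markers were present, with SYP, SNAP25, GAP43 and ELAVL3 at 13.0 to 21.9 CPM and TUBB3 at 1.93 to 3.10 CPM. MAP2, RBFOX3 and STMN2 held 0 to 24 reads in each library. MAP2, the only one of these 3 that was tested, was lower in CBL0137 but not called (log2 fold change -0.89, edgeR adjusted p = 0.162). Summed over each list, endothelial markers came to 63.2 and 65.6 CPM in CBL0137 and 66.3 and 62.5 CPM in DMSO, most of it from EGFL7. Neuronal markers came to 81.5 and 83.2 CPM in CBL0137 against 64.3 and 63.6 CPM in DMSO. Blood markers came to 7.76 and 7.51 against 5.34 and 4.84 CPM, mostly from ITGAM. Epithelial markers came to 468 and 496 against 297 and 296 CPM, nearly all from KRT8 and KRT18. The epithelial genes EPCAM, CDH1, KRT5, ESRP1 and GRHL2 held 0 to 14 reads in each library and were not tested. By edgeR, the calls in these lists were 1 of 4 tested endothelial genes called higher (CDH5), 1 of 3 blood genes (ITGAM), 2 of 2 epithelial genes (KRT8 and KRT18), and 0 of 6 neuronal genes, 4 of which had an adjusted p under 0.05 with a higher level, 4 an unadjusted p under 0.05, and 0 a call by DESeq2 or limma-voom. No marker of these 4 lists was called lower. For comparison, the called share of the 17309 genes in the test was 6.88% higher and 2.73% lower. With fold change ignored, 17.5% of them stood higher and 19.0% lower at the same adjusted p. These 4 lists hold only 2 to 6 tested genes each, too few to set against such shares. KRT8, just past the fold limit, was not called without CBL0137 replicate 2 (0.55) or DMSO replicate 1 (0.57). By DESeq2 and with no count filter (0.578) it lay just inside the limit. On log2(FPKM + 1) its change was 0.157 (limma-trend adjusted p = 0.838). ITGAM was not called by DESeq2 (adjusted p = 0.0506). CDH5 passed the filter through the CBL0137 libraries alone, had no adjusted p by DESeq2 and was not called without DMSO replicate 2 (log2 fold change 2.18). Of the 9 Ewing markers, edgeR, DESeq2 and limma-voom called 0, with 2 higher and 3 lower at an adjusted and also at an unadjusted p under 0.05. The part of these shifts in the values below was not tested.

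Guidance genes were a small and slightly larger part of the gene reads under CBL0137. They took 0.225% and 0.230% of gene reads in CBL0137 replicates 1 and 2, against 0.198% and 0.195% in DMSO replicates 1 and 2. Their summed CPM was 2191 and 2266 in CBL0137, against 2028 and 1999 in DMSO. Such sums follow the most abundant genes, and PLXNB2 alone gave 434 and 463 CPM, against 355 and 338 CPM. The test was edgeR's quasi-likelihood test with Benjamini-Hochberg adjustment over 17309 genes, and a gene was called at an adjusted p under 0.05 with a fold change above 1.5, which is a log2 fold change beyond 0.58 on either side. Of the 48 genes, 42 passed the filter on low counts. NTN1, PLXNA4, SEMA7A and SEMA3G were called higher, UNC5D was called lower, and 37 were not called. The 4 higher ones made up 9.52% of the genes tested here, against 6.88% of all genes tested, and the lower one 2.38%, against 2.73%, so these shares are near the background. Of the 4, PLXNA4 and SEMA3G passed the filter through the CBL0137 libraries alone, where they are high, and so had to differ, and their calls support nothing further. Without genes that passed through 1 condition alone, 2 of 40 guidance genes (5.0%) were called higher, against 5.96% of 15540 genes. In either direction, 5 of the 42 (11.9%) were called, against 9.61% of all genes. Without the fold limit, 15 genes (35.7%) had an adjusted p under 0.05 with a higher level, against 17.5% of all genes, and 5 (11.9%) with a lower level, against 19.0%. Without PLXNA4 and SEMA3G the higher ones were 13 of 40 (32.5%). The median log2 fold change was 0.17, against 0.003 over all genes tested, and 0.12 over the 40. In 28 of the 42 genes the conditions did not overlap in CPM (66.7%), against 66.9% of all genes. DESeq2, the tool that the submitters name, gave 9 and 4 genes without the fold limit and called NTN1 and UNC5D only. On the deposited FPKM, limma-trend on log2(FPKM + 1) tested 15 of the 20 genes that edgeR gave an adjusted p under 0.05, the others being too low. NTN1, PLXNA1, PLXNB2 and SEMA6B kept an adjusted p under 0.05 there, and the other 11 did not.

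The other 6 genes were below the filter. SEMA5A had 0 reads in every library, SLIT3 had 2 reads in CBL0137 replicate 2 and 0 elsewhere, and ROBO4, the endothelial ROBO, had 1 read in the second replicate of each condition. PLXNA2 had 2 and 0 reads in the CBL0137 libraries, against 2 and 0 reads in the DMSO libraries, SEMA3E 2 and 1 reads in the CBL0137 libraries, against 1 and 1 reads in the DMSO libraries, and UNC5C 6 and 15 reads in the CBL0137 libraries, against 4 and 10 reads in the DMSO libraries. A count of 0 allows up to 3 reads, which is 0.146 and 0.131 CPM of gene reads in the CBL0137 libraries and 0.128 and 0.130 CPM in the DMSO libraries, for counting error only.

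**Figure D1:**
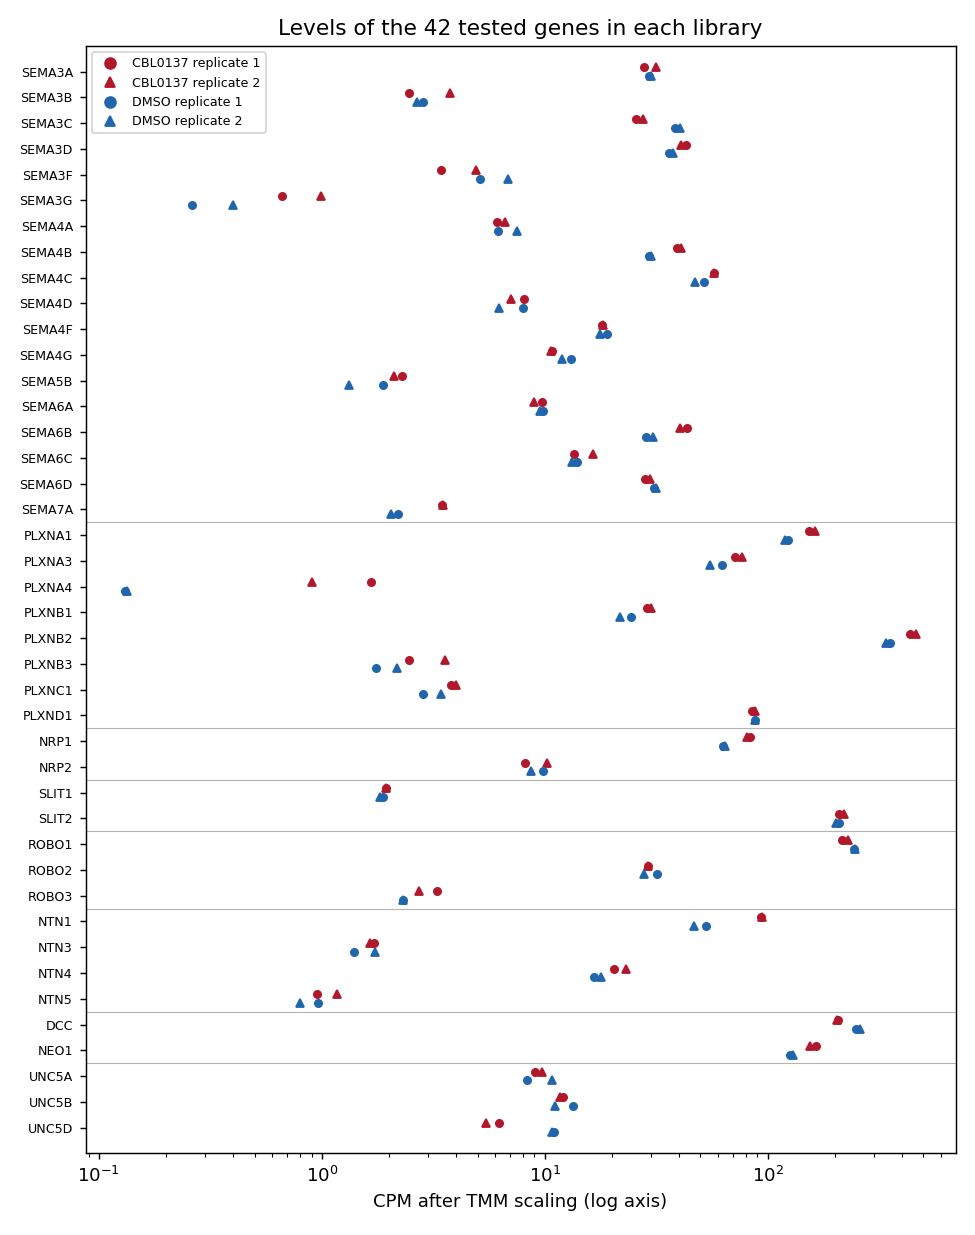
Level of each tested guidance gene in CPM after TMM scaling, on a log axis, with CBL0137 in red above DMSO in blue and replicates 1 and 2 as circles and triangles. Levels run from 0.131 CPM for PLXNA4 in DMSO replicate 1 to 463 CPM for PLXNB2 in CBL0137 replicate 2.

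Levels between genes were compared as CPM per kilobase of annotated exon, averaged over the 4 libraries. PLXNB2, a receptor of class 4 semaphorins, was the most abundant at 54.7 CPM per kilobase. It was followed by ROBO1 at 21.1, SLIT2 at 19.0, NEO1 at 17.7 and DCC at 17.6, with PLXNA1 at 12.5 and NTN1 at 11.2 CPM per kilobase next. In CBL0137 NEO1 stood above DCC (20.2 and 19.0 against 15.8 and 15.7 CPM per kilobase), and in DMSO below it (15.5 and 15.9 against 19.1 and 19.8). The order depends on the scale, since the deposited FPKM averaged 9.58 for PLXNA1, 7.89 for NTN1, 4.72 for NEO1 and 3.33 for DCC over the 4 libraries. A673 transcribed ligands and receptors of each family at once, SLIT2 with ROBO1, NTN1 with DCC and NEO1, and class 3 and 4 semaphorins with NRP1 and plexins. PLXNB2 alone gave 55.6% and 55.8% of plexin reads in CBL0137 and 53.9% and 53.9% in DMSO, and ROBO1 gave 86.9% and 87.7% of ROBO reads in CBL0137 and 87.7% and 89.0% in DMSO.

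Upstream sequence is shown for 4 genes whose levels bear on the results and whose window lies outside the annotated gene. These are SEMA7A and SEMA3G, which were called higher, and SEMA3C and DCC, which had lower levels under CBL0137. Each is the 250 bases before the RefSeq start, from the RefSeq promoter table of GRCh38.p14. Each was searched for only in its gene's chromosome of GRCh37 and matched there at 1 place, which gives the positions. They lie at chr15:74726300-74726549 on the minus strand, chr3:52479120-52479369 on the minus strand, chr7:80551706-80551955 on the minus strand and chr18:49866317-49866566 on the plus strand. Capitals mark GGGCGG or CCAAT on either strand.
SEMA7A: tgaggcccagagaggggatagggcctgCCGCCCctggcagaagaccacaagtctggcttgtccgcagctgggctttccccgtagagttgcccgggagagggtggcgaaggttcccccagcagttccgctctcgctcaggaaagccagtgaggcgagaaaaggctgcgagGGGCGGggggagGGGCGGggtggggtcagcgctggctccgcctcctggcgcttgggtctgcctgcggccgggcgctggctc
SEMA3G: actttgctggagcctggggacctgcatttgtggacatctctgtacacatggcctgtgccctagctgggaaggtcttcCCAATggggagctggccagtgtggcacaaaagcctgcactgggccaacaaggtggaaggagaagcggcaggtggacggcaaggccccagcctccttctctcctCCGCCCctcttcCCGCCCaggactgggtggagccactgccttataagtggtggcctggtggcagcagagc
SEMA3C: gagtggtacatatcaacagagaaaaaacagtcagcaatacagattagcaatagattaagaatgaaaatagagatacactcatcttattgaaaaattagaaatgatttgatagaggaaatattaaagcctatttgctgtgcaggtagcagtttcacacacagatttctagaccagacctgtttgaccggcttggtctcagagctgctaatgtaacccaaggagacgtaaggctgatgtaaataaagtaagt
DCC: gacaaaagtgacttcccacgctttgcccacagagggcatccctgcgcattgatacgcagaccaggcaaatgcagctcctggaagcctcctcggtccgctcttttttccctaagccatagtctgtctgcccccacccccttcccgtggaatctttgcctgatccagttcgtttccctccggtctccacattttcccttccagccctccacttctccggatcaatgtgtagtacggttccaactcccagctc

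The SEMA7A window has 70% G and C and 3 GGGCGG matches, and the SEMA3G window has 62% with 2 GGGCGG matches and 1 CCAAT match. SEMA3C has 36.4% G and C, the lowest of the 40 guidance genes with an entry in the table, and neither it nor DCC, at 56%, holds a match. The median over the 40 windows was 65%, against 58% over 35116 promoters of the same length. Counting both strands, GGGCGG was in 25 of the 40 windows, against 42.6% of all promoters, and CCAAT in 10, against 32.0%. GGAAGGAA, a tandem of the ETS core that EWS-FLI1 binds in repeats, was in 3 (PLXNB1, SLIT3 and UNC5A), against 3.06%, and TATAAA was in 0, against 10.7%. No motif is contained in another, and a match is only a match of letters.

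Semaphorins were tested at 18 of 20 genes, of which 2 were called higher and 0 lower, against 6.88% and 2.73% of all genes. Without the fold limit 6 were higher (33.3%) and 2 lower (11.1%) at an adjusted p under 0.05, against 17.5% and 19.0% of all genes. SEMA3G is among the higher ones in both counts, and its direction was fixed, since it passed the filter through the CBL0137 libraries alone. A filter of 1 CPM in 2 libraries left it out, and 5 of 17 were then higher and 2 lower at an adjusted p under 0.05. In the main fit the 2 lower ones were also those at an unadjusted p under 0.05. DESeq2 and limma-voom called 0 falls as well. The class 3 semaphorins, which are secreted, differed among themselves. SEMA3C (ENSG00000075223, chromosome 7, 80371854 to 80551675), known in mouse for its part in forming the heart outflow tract, had 25.8 and 27.8 CPM in the CBL0137 libraries, against 38.3 and 40.7 CPM in the DMSO libraries. Both CBL0137 libraries were below both DMSO libraries. The log2 fold change was -0.56 ± 0.07 (SE; edgeR adjusted p = 9.7e-07), just inside the fold limit, and it passed the limit without CBL0137 replicate 2 (-0.62) or DMSO replicate 1 (-0.61). On log2(FPKM + 1) it was -0.30 (limma-trend adjusted p = 0.0977). SEMA3C gave 24.9% and 25.2% of class 3 semaphorin reads in CBL0137, against 34.3% and 34.4% in DMSO.

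SEMA3F, a ligand of NRP2, had 3.43 and 4.92 CPM in the CBL0137 libraries, against 5.12 and 6.88 CPM in the DMSO libraries. The conditions did not overlap, but CBL0137 replicate 2 lay close to DMSO replicate 1. Its log2 fold change was -0.51 ± 0.19 (edgeR adjusted p = 0.0397). The adjusted p went to 0.288 without CBL0137 replicate 1, to 0.377 without DMSO replicate 2 and to 0.222 by DESeq2, whereas the gene was called lower without CBL0137 replicate 2 (-0.81) or DMSO replicate 1 (-0.72). SEMA3D had 43.0 and 40.9 CPM in the CBL0137 libraries, against 36.0 and 37.6 CPM in the DMSO libraries, a small excess in both CBL0137 libraries (0.19 ± 0.07, edgeR adjusted p = 0.0272). The adjusted p was 0.160, 0.212 and 0.0631 without CBL0137 replicate 1, DMSO replicate 1 and DMSO replicate 2, and 0.209 by DESeq2. SEMA3A, the collapsing factor of growth cones, measured 29.8 ± 2.68 CPM in CBL0137 and 29.6 ± 0.494 CPM in DMSO (mean ± SD, n = 2 each here and below). Its log2 fold change was 0.01 ± 0.08, with a 95% interval of -0.15 to 0.17, so a change beyond the fold limit lies outside the interval. SEMA3B had an interval of -0.30 to 0.67, too wide for that statement.

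SEMA3G, a class 3 semaphorin known from vessels, had 14 and 23 reads in the CBL0137 libraries, against 6 and 9 reads in the DMSO libraries. Each CBL0137 library held more reads than either DMSO library, and the gene entered the test through the CBL0137 libraries alone. Its fitted log2 fold change was 1.32 ± 0.52 (edgeR adjusted p = 0.0471), which for that reason is a description. With no count filter the adjusted p was 0.0560. The call was also lost when any 1 of the 4 libraries was left out, with adjusted p = 0.0642 to 0.360 and log2 fold changes of 0.997 to 1.64, and DESeq2 gave it no adjusted p. On chromosome 7 the genes SEMA3C, SEMA3E, SEMA3A and SEMA3D all lie on the minus strand between 80371854 and 84816372. Within this stretch SEMA3C was lower, SEMA3E was nearly silent, SEMA3A did not pass the test and SEMA3D was slightly higher.

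Class 4 and class 6 semaphorins are membrane-bound. SEMA6B had 43.4 and 40.6 CPM in the CBL0137 libraries, against 28.4 and 30.7 CPM in the DMSO libraries, and the conditions were well apart (0.51 ± 0.07, edgeR adjusted p = 3.1e-06). SEMA4B had 39.1 and 41.1 CPM in the CBL0137 libraries, against 29.4 and 30.1 CPM in the DMSO libraries, also without overlap (0.43 ± 0.07, edgeR adjusted p = 1.9e-05), but 0.17 on log2(FPKM + 1) (limma-trend adjusted p = 0.404). SEMA4C, a ligand of PLXNB2, had 57.8 and 57.7 CPM in the CBL0137 libraries, against 52.1 and 47.0 CPM in the DMSO libraries (0.22 ± 0.06, edgeR adjusted p = 0.00586). All 3 were higher under CBL0137 and stayed within the fold limit, and SEMA4C lost its adjusted p without DMSO replicate 2 (0.192) and by DESeq2 (0.0758). The other class 4 to 6 genes tested, SEMA4A, SEMA4D, SEMA4F, SEMA4G, SEMA5B, SEMA6A, SEMA6C and SEMA6D, ran from -0.22 to 0.45 on the log2 scale with edgeR adjusted p from 0.132 to 0.907. Of the exon bases of SEMA4G, 28.0% are shared with genes on the other strand, chiefly MRPL43, so its reads are uncertain.

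SEMA7A, the GPI-anchored semaphorin that binds PLXNC1 and integrins, had 73 and 81 reads in the CBL0137 libraries, against 50 and 46 reads in the DMSO libraries. In CPM these were 3.48 and 3.50 in CBL0137, against 2.19 and 2.04 in DMSO, with no overlap. SEMA7A rose by 0.72 ± 0.23 on the log2 scale (edgeR adjusted p = 0.0156). The call was lost without CBL0137 replicate 2 (adjusted p = 0.0514) or DMSO replicate 2 (0.0820) and by DESeq2 (0.169), with log2 fold changes of 0.66 to 0.78 over all its alternatives. Its receptor PLXNC1 measured 3.91 ± 0.145 CPM in CBL0137 and 3.13 ± 0.407 CPM in DMSO, a log2 fold change of 0.32 ± 0.20 with an interval of -0.10 to 0.74.

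**Figure D2:**
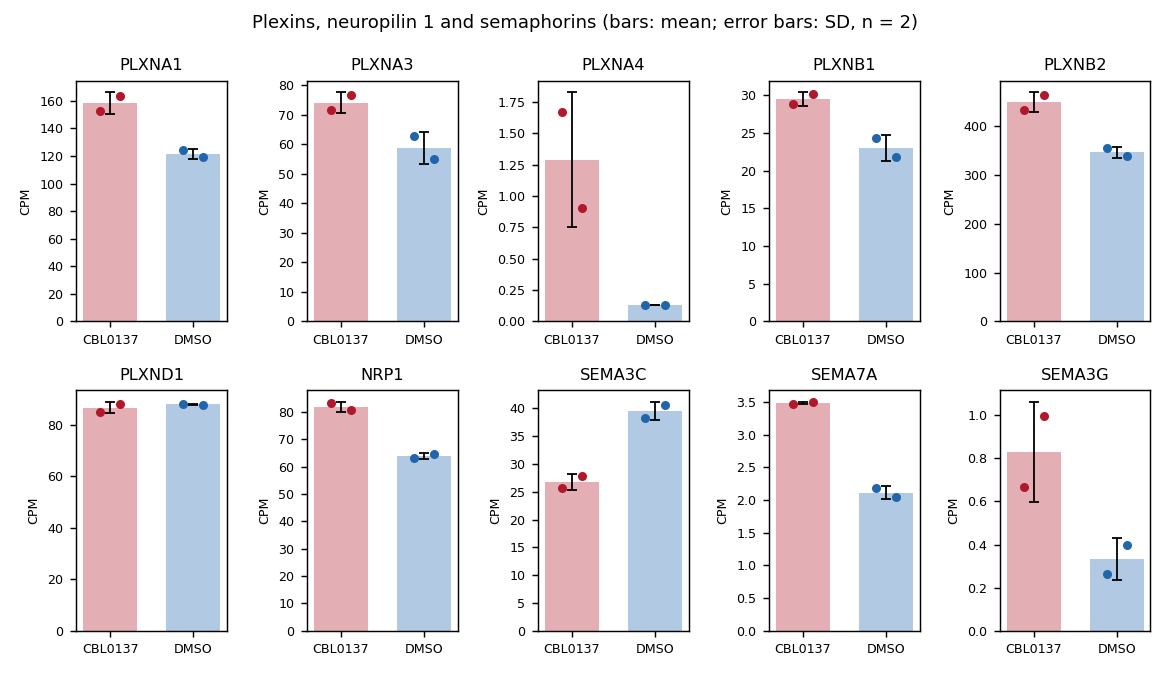
CPM after TMM scaling of 6 plexins, NRP1 and 3 semaphorins, as the mean (bar), SD (error bar) and both libraries (points) of CBL0137 and of DMSO, each panel on its own axis from 0. PLXNA1, PLXNA3, PLXNB1, PLXNB2 and NRP1 are higher in both CBL0137 libraries, the PLXND1 conditions overlap, and SEMA3C is lower.

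Among the plexins, the main semaphorin receptors, 8 of 9 were tested, and 1 was called higher and 0 lower. Over all genes tested, 6.88% were called higher and 2.73% lower. DESeq2 and limma-voom also called 0 falls among the plexins. Without the fold limit 5 were higher, PLXNA4 among them, and 0 lower, against 17.5% and 19.0% of all genes. At an unadjusted p under 0.05 there were 6 higher and 0 lower, and over all 17309 genes 3803 higher and 3954 lower. Of those 5, 4 differed by nearly the same amount. PLXNB2 had 434 and 463 CPM in the CBL0137 libraries, against 355 and 338 CPM in the DMSO libraries (0.37 ± 0.04, edgeR adjusted p = 1.6e-08). PLXNA1, a partner of NRP1 in class 3 signalling, had 153 and 164 CPM in the CBL0137 libraries, against 124 and 119 CPM in the DMSO libraries (0.38 ± 0.05, 2.2e-07 in the same test). PLXNB1, the receptor of SEMA4D, had 28.9 and 30.1 CPM in the CBL0137 libraries, against 24.3 and 21.9 CPM in the DMSO libraries (0.36 ± 0.08, 0.00111). PLXNA3, which serves SEMA3F with NRP2, had 71.7 and 76.5 CPM in the CBL0137 libraries, against 62.7 and 54.9 CPM in the DMSO libraries (0.33 ± 0.06, 1.0e-04). In all 4 of these the lowest CBL0137 library was above the highest DMSO library in CPM, but the conditions did not overlap in 66.9% of all genes tested. The 4 were named for their adjusted p, so this adds no support. On FPKM, limma-trend gave adjusted p of 0.0330 for PLXNA1, 0.0317 for PLXNB2, 0.164 for PLXNB1 and 0.212 for PLXNA3.

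PLXNA4 (ENSG00000221866, chromosome 7, 131808099 to 132333447), a receptor of class 3 and class 6 semaphorins, was scarce in both conditions. It had 35 and 21 reads in the CBL0137 libraries, against 3 and 3 reads in the DMSO libraries. The DMSO libraries sat at the level that a count of 0 allows, and CBL0137 replicate 1 held more reads than replicate 2. Its fitted log2 fold change was 3.22 ± 0.58 (edgeR adjusted p = 9.0e-05). Since the gene entered the test through the CBL0137 libraries alone, this p does not support a rise beyond the counts themselves. The ratio of its reads per gene read, CBL0137 over DMSO, was 10.0, with an exact 95% counting interval of 4.32 to 28.4. That interval pools the libraries of each condition and leaves out the spread between them. For the same reason as the p, it is a description and gives no support for a rise. The log2 fold change ran from 2.72 without CBL0137 replicate 1 to 3.60 without CBL0137 replicate 2, and DESeq2 gave no adjusted p. Even so, PLXNA4 averaged only 1.29 CPM in CBL0137 and 0.132 CPM in DMSO, while PLXNA1 averaged 158 and 122 CPM.

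PLXNB3 had 2.48 and 3.58 CPM in the CBL0137 libraries, against 1.75 and 2.18 CPM in the DMSO libraries and was not called (0.63 ± 0.26, edgeR adjusted p = 0.0594). It was called higher without CBL0137 replicate 1 (0.86), with a 1 CPM filter (0.64), with upper-quartile factors (0.68) and with library size alone (0.69), and 20.4% of its exon bases are shared with SRPK3 on the same strand. PLXND1, the vascular plexin that SEMA3E binds directly, had 85.1 and 88.3 CPM in the CBL0137 libraries, against 88.1 and 87.8 CPM in the DMSO libraries, and the conditions overlapped. Its 95% interval was -0.12 to 0.08, which places it apart from the 4 plexins above by value, although the difference between genes was not tested. Its log2 fold change of -0.02 turned to 0.028 with upper-quartile factors and 0.041 with library size alone.

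NRP1 (ENSG00000099250, chromosome 10, 33466420 to 33625190), co-receptor of class 3 semaphorins and of VEGF-A, had 83.1 and 80.6 CPM in the CBL0137 libraries, against 63.2 and 64.5 CPM in the DMSO libraries. Both CBL0137 libraries were higher (0.36 ± 0.05, edgeR adjusted p = 5.0e-06), within the fold limit. On FPKM they overlapped, with 9.49 and 5.83 in CBL0137, against 7.43 and 6.89 in DMSO (0.054 on the log2(FPKM + 1) scale, limma-trend adjusted p = 0.885). NRP2 had 8.19 and 10.2 CPM in the CBL0137 libraries, against 9.80 and 8.66 CPM in the DMSO libraries, and the conditions overlapped (0.00 ± 0.14, interval -0.28 to 0.28). On FPKM they did not, with 1.04 and 1.76 in CBL0137, against 0.684 and 0.486 in DMSO (0.59, limma-trend adjusted p = 0.110), so the scales order the neuropilins differently. Of the 8 VEGF ligands and receptors tested, edgeR, DESeq2 and limma-voom each called 0. At an adjusted p under 0.05, and also at an unadjusted one, 2 were higher and 2 lower. Over all genes tested, 17.5% were higher and 19.0% lower at an adjusted p under 0.05. PGF (0.56 ± 0.08) and the receptor FLT1 (0.38 ± 0.06) were higher, and VEGFB (-0.34 ± 0.06) and VEGFA (-0.16 ± 0.04) were lower, with edgeR adjusted p of 2.6e-06, 1.5e-05, 6.0e-05 and 0.00245.

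Within SLIT and ROBO signalling, edgeR, DESeq2 and limma-voom called 0 of the 2 tested SLITs and 0 of the 3 tested ROBOs. No SLIT passed an unadjusted p of 0.05, and 1 ROBO did, with a lower level, as did 22.8% of all genes tested. SLIT2 had 209 and 219.7 CPM in the CBL0137 libraries, against 208 and 202 CPM in the DMSO libraries, and the CBL0137 values lay only just above the DMSO values (0.06 ± 0.04, interval -0.02 to 0.15). SLIT1 had 41 and 45 reads in the CBL0137 libraries, against 43 and 41 reads in the DMSO libraries. ROBO1, the main SLIT2 receptor here, had 215 and 229 CPM in the CBL0137 libraries, against 244 and 247 CPM in the DMSO libraries. Both CBL0137 libraries were lower (-0.14 ± 0.04, edgeR adjusted p = 0.00548) and without overlap, and the adjusted p was 0.0939 with library size alone. On log2(FPKM + 1) it was -0.37 (limma-trend adjusted p = 0.387). ROBO2 had 29.1 and 29.2 CPM in the CBL0137 libraries, against 31.8 and 28.0 CPM in the DMSO libraries with overlap (-0.04 ± 0.08, interval -0.20 to 0.12). ROBO3, which in mammals has lost most binding to SLITs, had 69 and 63 reads in the CBL0137 libraries, against 53 and 52 reads in the DMSO libraries (0.37 ± 0.24, edgeR adjusted p = 0.238).

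Netrin signalling held the most abundant of the 5 called genes. NTN1 (ENSG00000065320, chromosome 17, 8924827 to 9147317), the classical chemoattractant of commissural axons, had 93.2 and 94.7 CPM in the CBL0137 libraries, against 52.8 and 46.7 CPM in the DMSO libraries. The CBL0137 libraries were almost equal and far above both DMSO libraries. NTN1 rose by 0.92 ± 0.06 on the log2 scale, a fold of 1.89 (edgeR adjusted p = 3.2e-12), and was called under every alternative except the fold limit of 2, from 0.82 to 1.0 on the log2 scale. NTN4, a netrin of basement membranes that binds laminins, had 20.4 and 23.1 CPM in the CBL0137 libraries, against 16.7 and 17.9 CPM in the DMSO libraries (0.34 ± 0.09, edgeR adjusted p = 0.00638), higher in both but within the fold limit. Its adjusted p was 0.118 without CBL0137 replicate 2, 0.0593 without DMSO replicate 1 and 0.0951 by DESeq2. NTN3 and NTN5 were at 18 to 39 reads, with intervals of -0.52 to 0.72 and -0.53 to 1.06. NTN1 made up 80.1% and 78.5% of netrin ligand reads in CBL0137, against 73.5% and 69.6% in DMSO.

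The main netrin receptors differed in opposite directions. DCC (ENSG00000187323, chromosome 18, 49866567 to 51062269) had 207 and 206 CPM in the CBL0137 libraries, against 250.1 and 259.5 CPM in the DMSO libraries. NEO1 (ENSG00000067141, chromosome 15, 73344051 to 73597546), its closest relative and a receptor also of repulsive guidance molecules, had 165 and 155 CPM in the CBL0137 libraries, against 126 and 129 CPM in the DMSO libraries. For DCC both CBL0137 libraries were lower, and for NEO1 both were higher. The log2 fold changes were -0.30 ± 0.04 for DCC (edgeR adjusted p = 5.6e-07) and 0.32 ± 0.04 for NEO1 (2.2e-06), both within the fold limit. On log2(FPKM + 1) they were -0.29 and 0.29, with limma-trend adjusted p of 0.136 and 0.190. DCC had 1.26 and 1.33 reads for each NEO1 read in CBL0137, against 1.98 and 2.0 in DMSO. DCC gave 51.9% and 53.0% of all netrin receptor reads in CBL0137, against 61.1% and 61.5% in DMSO.

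UNC5D (ENSG00000156687, chromosome 8, 35092993 to 35654068), a repulsive netrin receptor that in mouse cortex also binds FLRT2, was the only guidance gene called lower. It had 6.24 and 5.48 CPM in the CBL0137 libraries, against 11.1 and 10.8 CPM in the DMSO libraries. Both CBL0137 libraries were far below both DMSO libraries. UNC5D fell by 0.90 ± 0.14 on the log2 scale (edgeR adjusted p = 8.9e-06), and was called under every alternative that gave it a value except the fold limit of 2, from -0.998 to -0.811. UNC5A measured 9.40 ± 0.438 CPM in CBL0137 and 9.55 ± 1.69 CPM in DMSO, and UNC5B 11.9 ± 0.283 CPM in CBL0137 and 12.3 ± 1.65 CPM in DMSO. Their intervals were -0.30 to 0.26 and -0.28 to 0.20, both inside the fold limit. UNC5D gave 22.5% and 19.9% of UNC5 reads in CBL0137, against 33.5% and 32.6% in DMSO.

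**Figure D3:**
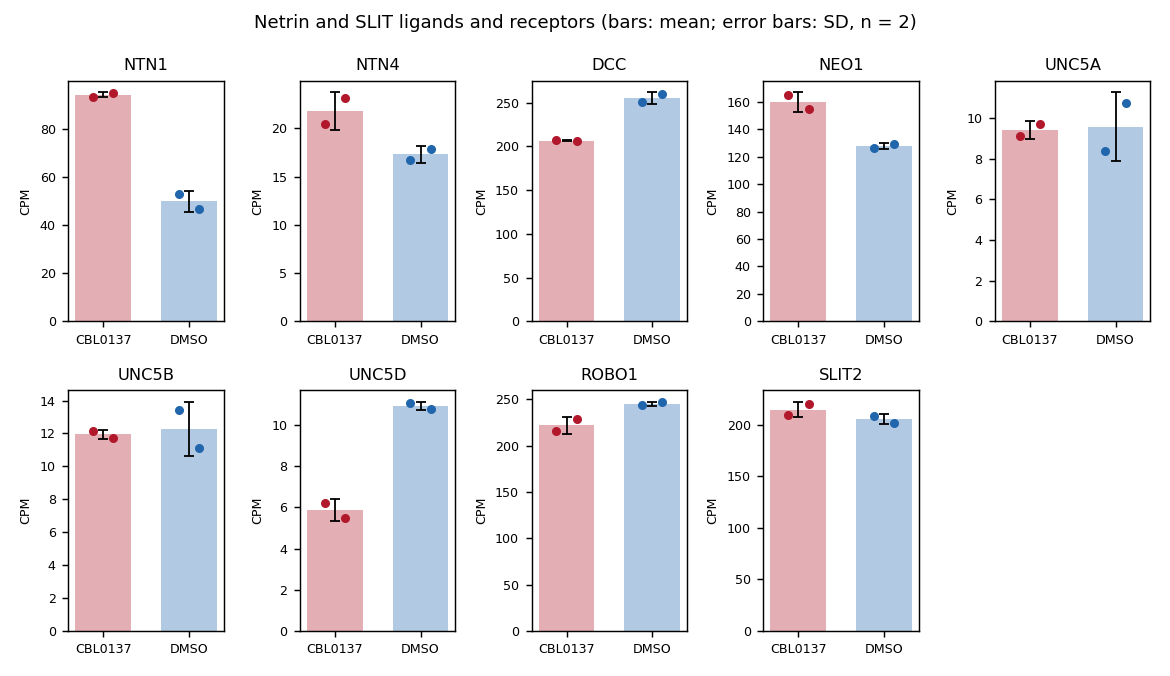
CPM after TMM scaling of netrin and SLIT ligands and receptors, as the mean (bar), SD (error bar) and both libraries (points) of CBL0137 and of DMSO, each panel on its own axis from 0. NTN1, NTN4 and NEO1 are higher in both CBL0137 libraries, DCC, UNC5D and ROBO1 are lower, and the UNC5A and UNC5B conditions overlap.

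**Figure D4:**
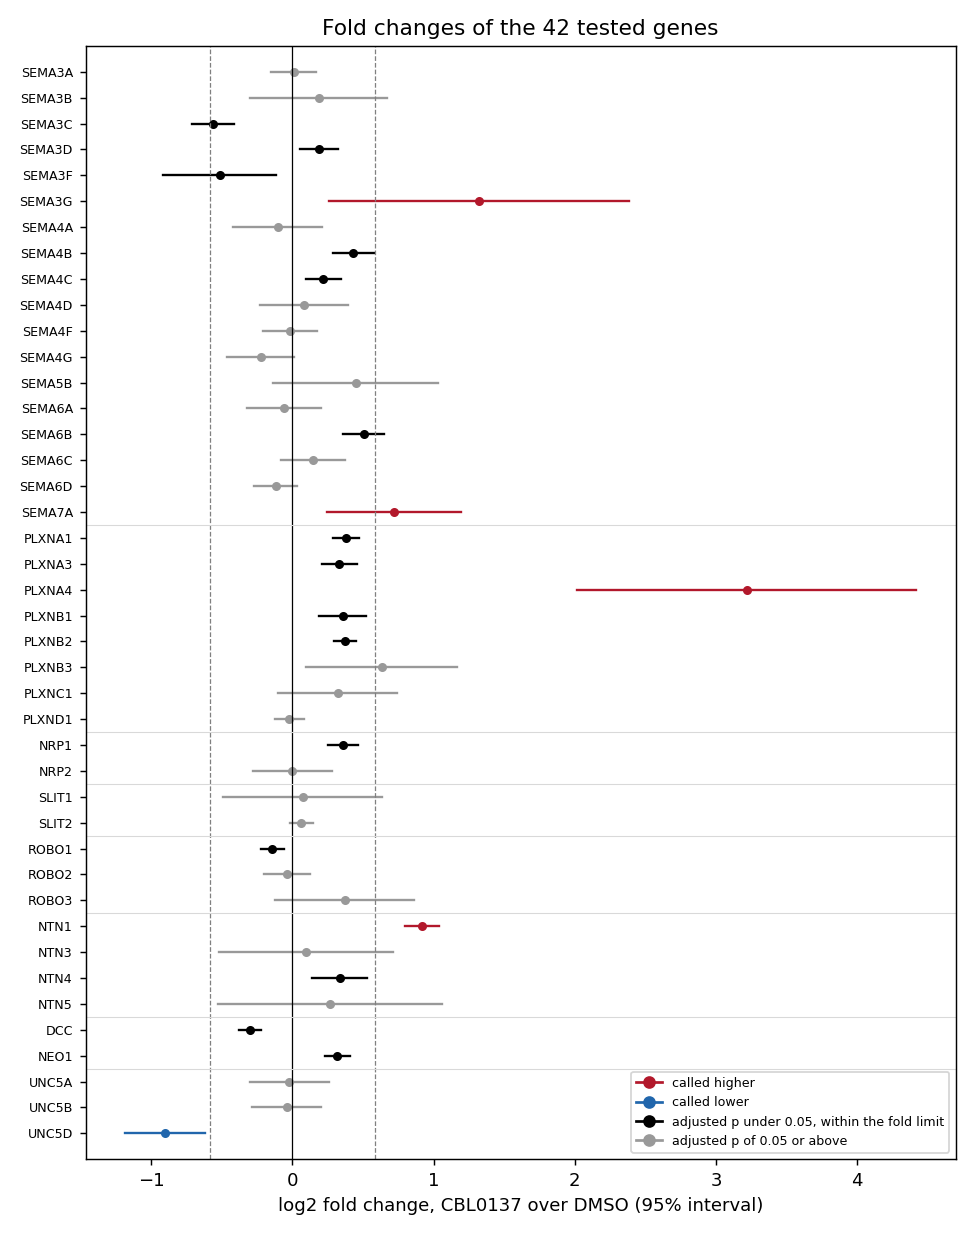
Log2 fold change of CBL0137 over DMSO with its 95% interval for the 42 tested guidance genes, grouped by family, with dashed lines at the fold limit of 1.5. Red marks the 4 genes called higher, blue UNC5D, black the genes with an adjusted p under 0.05 inside the limit, and grey the rest.

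Genes that act with these ligands and receptors were read from lists that were chosen with earlier results of these data known. Over all genes tested, 6.88% were called higher and 2.73% lower, which is the background for the counts in each list. In the semaphorin and plexin list, 1 of 21 tested genes was called higher and 1 lower, with a median of -0.01. RND1, a GTPase that binds plexin tails, fell (-1.06 ± 0.26, edgeR adjusted p = 0.00215). On log2(FPKM + 1) it was also lower but not called (-0.46, limma-trend adjusted p = 0.0891). FES, a kinase of plexin signalling named after its value was seen, was called higher (1.24 ± 0.42, 0.0240), having passed the filter through the CBL0137 libraries alone, with 1.33 and 1.08 CPM in CBL0137, against 0.438 and 0.577 CPM in DMSO. The call was lost by DESeq2 (0.203) and without CBL0137 replicate 1 (0.158), DMSO replicate 1 (0.178) or DMSO replicate 2 (0.0695). DPYSL3 (-0.57 ± 0.06), of the collapsin response mediators, PLXDC2 (-0.37 ± 0.04) and the exchange factor FARP2 (-0.20 ± 0.05) were lower within the fold limit. In the netrin list, 16 genes were tested, with a median of 0.00026. The kinase PAK1 fell (-0.60 ± 0.07, 1.7e-07). Its call, just past the fold limit, was lost with upper-quartile factors (-0.55), with library size alone (-0.54), without CBL0137 replicate 1 (-0.57) and on FPKM (-0.11). PITPNA (0.43 ± 0.04) was higher and ABLIM1 (-0.41 ± 0.07) lower within the limit.

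In the SLIT and ROBO list, edgeR, DESeq2 and limma-voom called 0 of 19 genes, with 4 higher and 4 lower at an unadjusted p under 0.05 and a median of 0.04. USP33 (0.23 ± 0.04) was higher, and DAG1 (-0.27 ± 0.04), ABL1 (-0.16 ± 0.04) and CLASP1 (-0.18 ± 0.04) were lower. Of 8 tested repulsive guidance molecules and other cues, 1 was called higher and 0 lower, with a median of 0.12, and 1 was lower at an unadjusted p under 0.05. That 1 rise was ISLR2, a membrane protein of axon growth (1.47 ± 0.21, edgeR adjusted p = 5.2e-06), whereas DRAXIN (0.57 ± 0.11), a secreted ligand of DCC, RGMB (-0.55 ± 0.17), a ligand of NEO1, and LINGO1 (0.12 ± 0.05) stayed inside the limit in this fit. With upper-quartile factors or library size alone, 2 of these 8 cues were called higher. By DESeq2, 0 of them were lower at an adjusted p under 0.05. Among 8 tested adhesion co-receptors the 3 tools called 0, with 4 higher and 1 lower at an unadjusted p under 0.05 and a median of 0.14. CD44 (0.45 ± 0.08), ITGB1 (0.18 ± 0.03) and L1CAM (0.22 ± 0.08) were higher, and NCAM1 (-0.37 ± 0.12) was lower.

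Guidance genes are long, with a median annotated span of 80.3 kb over the 42 tested, against 26.4 kb over 17196 tested genes with a position. Among the 17 spanning under 50 kb, 13 had a positive log2 fold change, and the median was 0.27. Among the 15 of 50 to 200 kb, 10 were positive with a median of 0.09, and among the 10 of over 200 kb, 5 were positive with a median of -0.01. Over all tested genes with a position, 5896 of 11535, 2204 of 4469 and 571 of 1192 were positive in the same bins. Their medians were 0.0080, -0.0041 and -0.016. The rank correlation of span and log2 fold change was -0.31 over the 42 genes and -0.03 over the 17196. These are descriptions across genes that share the same 4 libraries. They include SEMA3G in the shortest bin and PLXNA4 in the longest, whose direction was fixed, since they passed the filter through the CBL0137 libraries alone. The longest bin also holds NTN1, which was called higher, and UNC5D, which fell.

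**Figure D5:**
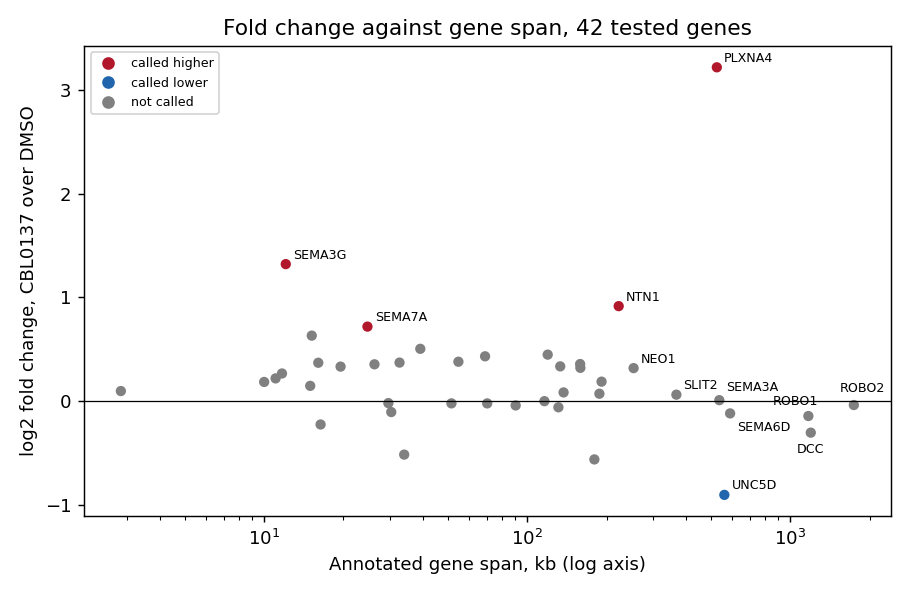
Log2 fold change of CBL0137 over DMSO against annotated gene span in kb, on a log axis, 1 point for each of the 42 tested guidance genes. Shorter genes lie mostly above 0, and the 10 genes of over 200 kb, which are named, run from -0.90 for UNC5D to 3.22 for PLXNA4.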

How the data were processed

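RNA of A673 cells was sequenced from 4 libraries, 2 per condition, grouped by sample title. The deposited counts are whole reads per gene without normalization, which the authors made with HTSeq 0.11.1 after adapter removal by Trim Galore and alignment by HISAT2 against hg19, per the submitters' processing notes. The deposited FPKM values were computed by the authors from mapped reads, gene length and depth, per the series' design text, with a tool not given in the sources used here. Strand setting and annotation release are not given in the sources used here either, so a gene's reads may include those of a gene that overlaps it on either strand. Of 60623 rows, 60617 name a gene. The HTSeq summary rows held 23.7% to 24.8% of reads and were left out.

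IDs were named from GENCODE release 44 on GRCh37 (58524 matched), which also gave positions and exon lengths. PECAM1 and SRGAP2 of the lists had no match. The test was edgeR 4.0.16 in R 4.3.3 with TMM factors, filterByExpr at its minimum count of 10 and glmQLFTest, CBL0137 against DMSO, with no other term. The SE is the log2 fold change over the square root of F, and 95% intervals use its degrees of freedom. Low counts limit what can be called, and the interval shows by how much. Alternatives used limma 3.58.1 and DESeq2 1.42.0, including limma-trend on log2(FPKM + 1). The fit was tested on simulated data. Tables were made with Python 3.11.15, pandas 2.3.3 and SciPy 1.17.1.

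The genes and lists were chosen with earlier results of these data known. All genes of the rule are accounted for, those with an adjusted p under 0.05 are given in every library, and each list names up to 4 genes with the smallest adjusted p. The text says so where it names another. A gene of the lists that this naming rule takes is not reported here.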

Additional observations from a re-analysis of the deposited data

How the results depend on the processing

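The counts of called guidance genes, 4 higher and 1 lower, became 1 and 1 by DESeq2, 15 and 5 with no fold limit, 2 and 0 with a fold limit of 2, and 1 and 0 by limma-trend on log2(FPKM + 1), which tests 26 of the genes. The counts over all genes, 1191 higher and 472 lower, became 593 higher by DESeq2, 3022 and 3292 with no fold limit, 605 and 131 with a fold limit of 2, and 388 and 189 on FPKM. With 1 replicate left out in turn, guidance genes called ran from 2 to 4 higher and from 1 to 3 lower, and all genes from 921 to 1052 higher and from 422 to 539 lower. The 2 higher were reached without CBL0137 replicate 2 or DMSO replicate 2, and the 3 lower, with SEMA3C and SEMA3F, without CBL0137 replicate 2 or DMSO replicate 1. Those fits take the spread of a lone library from the other condition. The cause of these shifts was not tested.

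The labels do not say that equal replicate numbers share a culture, and deviations of same-numbered libraries correlated at -0.02 over genes. With the replicate block, 3 guidance genes were called higher and 1 lower, and 1128 and 448 of all genes, SEMA3G passing to an adjusted p of 0.060.

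The sign was that of the reported value in every alternative for 29 of the 42 tested genes and turned in at least 1 for 13, all with an adjusted p of 0.05 or above. NRP2 turned to -0.010 with no count filter, -0.0081 by DESeq2, -0.0020 by limma-voom and -0.0031 with the replicate block, and SEMA3A to -0.0010 with no count filter. Under upper-quartile factors, PLXND1 turned to 0.028, ROBO2 to 0.012, SEMA4F to 0.030, UNC5A to 0.027 and UNC5B to 0.0080. Under library size alone, PLXND1 was at 0.041, ROBO2 at 0.025, SEMA4F at 0.044, SEMA6A at 0.0034, UNC5A at 0.041 and UNC5B at 0.021. On log2(FPKM + 1), PLXND1 was at 0.10, SEMA4F at 0.042, SEMA6A at 0.043, UNC5A at 0.10 and UNC5B at 0.0046. With 1 replicate left out, the values ran from -0.18 to 0.14 for NRP2, -0.053 to 0.25 for NTN3, -0.049 to 0.0020 for PLXND1, -0.13 to 0.052 for ROBO2, -0.089 to 0.094 for SEMA3A, -0.16 to 0.44 for SEMA3B, -0.25 to 0.040 for SEMA4A, -0.085 to 0.26 for SEMA4D, -0.075 to 0.027 for SEMA4F, -0.12 to 0.00020 for SEMA6A, -0.0028 to 0.27 for SEMA6C, -0.20 to 0.16 for UNC5A and -0.18 to 0.099 for UNC5B. Upper-quartile factors and library size alone moved the median log2 fold change of all genes to 0.051 and 0.065.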

Other observations

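The genes next to the called guidance genes were read in the same fit, chosen after those calls were known. On chromosome 17, NTN1 lies between PIK3R5, a PI3-kinase gamma subunit at 55.8 kb, which was called higher (1.48 ± 0.57, edgeR adjusted p = 0.0438) but passed the count filter through the CBL0137 libraries alone, and STX8, a syntaxin of endosomes at 6.47 kb, which was not called (-0.13 ± 0.11). PHF7, 9.39 kb from SEMA3G, fell (-0.64 ± 0.16, edgeR adjusted p = 0.00307), while NISCH at 10.0 kb on its other side was not called (0.10 ± 0.05). The neighbours of PLXNA4, PODXL (0.38 ± 0.04) and CHCHD3 (-0.10 ± 0.05), of SEMA7A, CCDC33 (1.15 ± 0.51) and UBL7 (0.19 ± 0.06), and of UNC5D, DUSP26 (0.28 ± 0.15) and ZNF703 (-0.04 ± 0.04), were not called.

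The deposited FPKM and the deposited counts disagreed in level for some guidance genes. Over the 42 tested, CPM per exon kilobase was 1.32 times FPKM in the median, from 0.596 times for ROBO3 to 16.8 times for PLXNA4, and DCC, ROBO2 and NEO1 stood at 5.28, 4.02 and 3.75 times. ROBO2 had FPKM of 0.492 and 0.0929 in the CBL0137 libraries, against 0.342 and 0.839 in the DMSO libraries, while its counts were 611 and 677, against 726 and 631. SEMA6D had FPKM of 0.790 and 3.65 in CBL0137, against 2.13 and 3.15 in DMSO, with counts of 591 and 689, against 710 and 715. The highest library exceeded the lowest by more than 2 times in 14 of the 42 genes on FPKM and in 6 on CPM. Which scale is nearer to the transcript level was not tested.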
